A study of Mus musculus with 8 samples.

Results

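The Notch family genes described here are 4 receptors (Notch1, Notch2, Notch3 and Notch4), 4 ligands (Jag1, Jag2, Dll1 and Dll4) and 2 targets (Hes1 and Hey1). They were chosen by gene symbol among the gene probe sets of the deposited table, and make up 10 of the 21626 genes tested. All 10 were measured, each by a single probe set. Affymetrix arrays measured RNA from 4 primary gastric adenocarcinomas of mice, frozen fresh, and from normal gastric mucosa (4 samples). The tumours arose spontaneously in mice that carried a transgene. The labels do not name the transgene, its promoter, the strain, the age or the sex, nor do they give the genotype of the mice that supplied the normal mucosa. They also do not say whether the samples came from separate animals, so the p-values cover only sample-to-sample spread, part of which may be technical.

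Notch receptors sit in the cell membrane and are switched on by ligands of the Jagged and Delta-like families on a neighbouring cell. Binding lets proteases release the inner part of the receptor, which enters the nucleus, joins the DNA-binding protein Rbpj and a Mastermind coactivator, and turns on Hes and Hey genes, themselves repressors. In the stomach the pathway is known for keeping gland progenitor cells dividing and for holding back their differentiation. It also acts in vessels, where Dll4 and Notch4 are known from endothelial cells and Notch3 from the pericytes and smooth muscle around them.

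The regions upstream of 3 of the genes that rose in adenocarcinoma are shown first, because Notch3, Dll1 and Dll4 carry the clearest changes among receptors and ligands. Each is the 250 bases before an annotated transcript start in RefSeq (mouse assembly GRCm38.p6), written 5′ to 3′ on the strand of the gene. Capitals mark CACNAG or its reverse complement CTNGTG, the N-box, a site bound by Hes proteins. Notch3 lies at chr17:32166891-32167140 (minus strand). Dll1 has 2 annotated starts, with windows at chr17:15376933-15377182 and chr17:15375824-15376073 (minus strand), and Dll4 lies at chr2:119325534-119325783 (plus strand).
Notch3: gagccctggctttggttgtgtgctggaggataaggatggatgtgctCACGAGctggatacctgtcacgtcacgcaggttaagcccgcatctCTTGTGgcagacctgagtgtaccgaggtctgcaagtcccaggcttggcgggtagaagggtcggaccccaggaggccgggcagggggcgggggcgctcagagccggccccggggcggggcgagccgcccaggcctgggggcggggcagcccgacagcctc
Dll1, first start: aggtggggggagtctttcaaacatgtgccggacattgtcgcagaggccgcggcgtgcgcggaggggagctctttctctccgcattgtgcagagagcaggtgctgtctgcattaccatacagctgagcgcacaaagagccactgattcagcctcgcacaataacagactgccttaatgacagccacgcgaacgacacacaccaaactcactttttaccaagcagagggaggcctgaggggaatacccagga
Dll1, second start: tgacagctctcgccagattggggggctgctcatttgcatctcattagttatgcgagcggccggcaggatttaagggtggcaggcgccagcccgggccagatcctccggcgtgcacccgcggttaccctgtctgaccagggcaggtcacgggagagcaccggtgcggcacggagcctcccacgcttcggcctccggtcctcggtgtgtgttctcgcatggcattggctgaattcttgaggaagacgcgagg
Dll4: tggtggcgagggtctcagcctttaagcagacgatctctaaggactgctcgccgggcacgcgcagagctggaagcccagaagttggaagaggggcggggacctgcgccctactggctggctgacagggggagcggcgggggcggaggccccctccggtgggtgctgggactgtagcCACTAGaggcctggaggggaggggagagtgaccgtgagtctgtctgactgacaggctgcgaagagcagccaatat

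Notch3 held the N-box letters at 2 places and Dll4 at 1, while neither Dll1 window held them. Of the 10 genes, 8 had an entry in the RefSeq promoter table, giving 9 windows, and Hes1 and Hey1 were not among them. The N-box letters occurred on either strand in 4 of these 9 windows and in 36.7% of all 32851 windows of the same length. The core letters bound by Rbpj (TGGGAA, or TTCCCA on the other strand) occurred in 0 of the 9 windows and in 21.6% of all windows. The E-box CACGTG, which reads the same on both strands and is bound by Hey proteins, occurred in 0 of the 9 and in 6.02% of all. The N-box was thus the only one of the 3 motifs found in the 9 windows, so no hits of different motifs overlapped. These counts describe letters in short windows only. The 9 windows held 56% to 87.2% G and C, against a median of 52.4% over all windows.

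Values below are log2 expression values made by RMA (robust multi-array average), differences are adenocarcinoma minus normal mucosa on that log2 scale, and errors of differences are the SE of the limma model. A gene was called where its limma p, adjusted over all 21626 genes by the method of Benjamini and Hochberg, was under 0.05. The median background probe lay at 6.0 to 6.4 on the 8 arrays, below all 10 genes in all samples. By this rule 41.8% of all genes were called, 18.2% higher and 23.6% lower in adenocarcinoma, and the median difference over all genes was -0.10. The share of calls that were higher, 43.6%, moved to 24.8% with arrays centred on their median, 54.8% after cyclic loess and 73.8% with arrays centred on olfactory and vomeronasal receptor genes. The median difference was then -0.24, -0.01 and 0.05. The groups also differed in sex-linked genes. Xist, transcribed from an inactive X chromosome, ranged from 6.2 to 6.6 in adenocarcinoma and from 11.6 to 12.7 in normal mucosa. The Y-linked Eif2s3y lay at 9.2 to 11 and 5.1 to 5.3. Sex and tissue cannot be told apart in any difference given here.

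Of the 10 genes, 5 rose (Notch1, Notch3, Dll1, Dll4 and Hey1), 1 fell (Hes1) and 4 were not called (Notch2, Notch4, Jag1 and Jag2). Only Dll1 changed at least 2-fold, where 6.63% of all genes were called higher by that much and 3.15% lower. The groups did not overlap for the 5 genes that rose, while 34.3% of all genes did not overlap and 15.8% lay higher without overlap. The median difference of the 10 genes was 0.39, beside -0.10 over all genes. Without the dimmest 30% of genes, the median over the 15139 that remained was 0. The 5 parietal cell markers, which mark acid-secreting cells, averaged 11.9 to 12.1 in normal mucosa and 7.34 to 7.80 in adenocarcinoma. The 6 epithelial markers averaged 12.27 to 12.42 in normal mucosa and 12.88 to 12.93 in adenocarcinoma. Of these, Cldn7 (3.35), Epcam (0.60) and Krt18 (0.42) rose, Cldn18 fell (-0.57), and the keratins Krt8 (-0.08) and Krt19 (-0.15) were not called. Cldn7, a claudin, was at 8 to 8.8 in normal mucosa, while each of the other 5 was above 11 in all 8 samples. Of 12 endothelial markers 11 rose, as did 6 of 6 pericyte, 6 of 8 smooth muscle, 8 of 8 fibroblast and 7 of 7 macrophage markers. In such bulk samples, fewer cells of a type and less RNA per cell cannot be told apart.

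**Figure D1:**
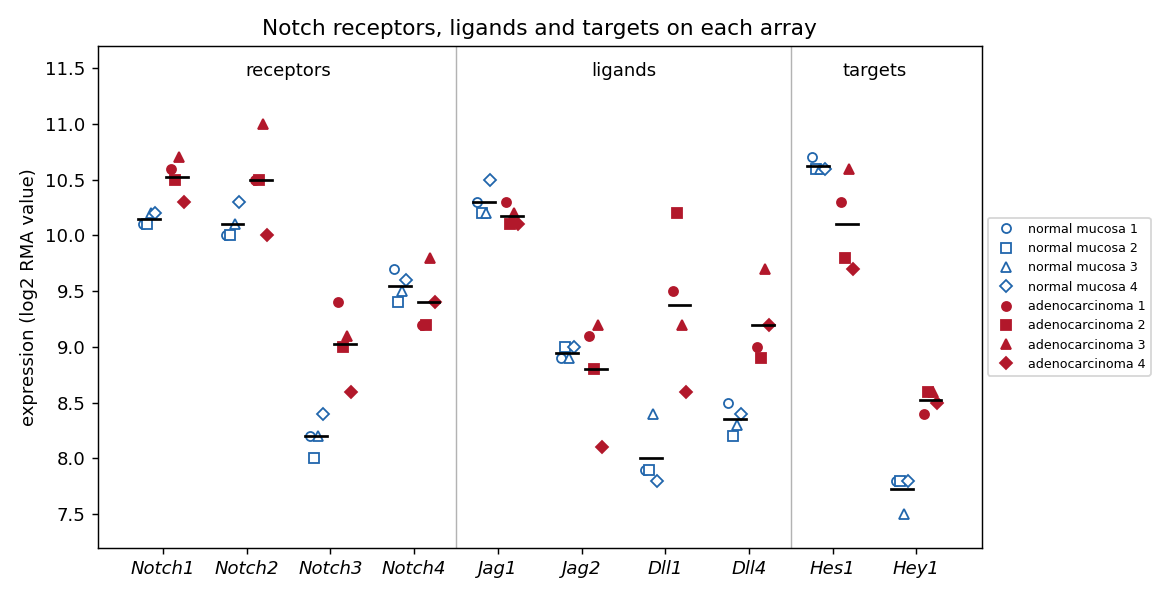
Log2 RMA values (vertical axis) of the 10 Notch family genes on each of the 8 arrays; open blue symbols are normal mucosa, filled red symbols adenocarcinoma, the symbol shape is the replicate number and the black bar the mean of 4. The red and blue symbols do not overlap for Notch1, Notch3, Dll1, Dll4 and Hey1, and Hes1 spreads downward in adenocarcinoma from a tight normal group at 10.6 to 10.7.

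Among the receptors, Notch3 rose most. Notch3 (probe set 10449775, chromosome 17, 32257838 to 32303797 by the deposited annotation, for which no source used here names the build) was at 9.4, 9.0, 9.1 and 8.6 in adenocarcinoma replicates 1 to 4. In normal mucosa it was at 8.2, 8.0, 8.2 and 8.4. All 4 adenocarcinomas lay above all 4 normal samples, with replicate 4 nearest to them. The difference was 0.82 ± 0.165 (1.77-fold; limma adjusted p = 0.00486). Notch3 is the receptor of mural cells, and the 6 pericyte markers had a median difference of 2.40. In normal mucosa their mean level was 7.75 to 7.98, in adenocarcinoma 9.82 to 11.1, and none was at or below background on all 8 arrays. The 8 smooth muscle markers averaged 7.84 to 7.99 in normal mucosa and 8.84 to 11.6 in adenocarcinoma, with a median difference of 2.79. The adenocarcinoma with the highest Notch3, replicate 1, had the lowest mean of both lists, 9.82 for pericytes and 8.84 for smooth muscle. The part of these cells in the rise of Notch3 was not tested.

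Notch1, the receptor best known from epithelial progenitors and T cells, rose slightly. It was at 10.6, 10.5, 10.7 and 10.3 in adenocarcinoma and at 10.1, 10.1, 10.2 and 10.2 in normal mucosa. The groups lay close together without touching. The difference was 0.38 ± 0.101 (1.30-fold; limma adjusted p = 0.0181). The call was lost with arrays centred on their median (0.24, adjusted p = 0.0727), after cyclic loess (0.32, adjusted p = 0.0644) and without normal replicate 1 (0.36, adjusted p = 0.0516).

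Notch2, a close relative of Notch1, was at 10.5, 10.5, 11 and 10 in adenocarcinoma and at 10, 10, 10.1 and 10.3 in normal mucosa. Replicates 1, 2 and 3 lay above all normal samples, whereas replicate 4 lay at the level of the lowest. The difference of 0.40 ± 0.189 was not called (adjusted p = 0.113; 95% interval -0.03 to 0.83), and without adenocarcinoma replicate 4 it was 0.57 with a limma adjusted p of 0.0184. Without adenocarcinoma replicate 3 it was 0.23 (adjusted p = 0.227).

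Notch4, an endothelial receptor, was at 9.2, 9.2, 9.8 and 9.4 in adenocarcinoma and at 9.7, 9.4, 9.5 and 9.6 in normal mucosa. The groups overlapped and the highest value was that of adenocarcinoma replicate 3. The difference was -0.15 ± 0.144 (adjusted p = 0.413; 95% interval -0.48 to 0.18). Over the same arrays the 12 endothelial markers had a median difference of 1.88. In normal mucosa their mean level was 7.55 to 7.68, in adenocarcinoma 9.5 to 10.5, and it was highest in replicate 3, as Notch4 was. The means of pericyte, smooth muscle and fibroblast markers were also highest in replicate 3, and that of macrophage markers in replicate 2.

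The receptors changed unequally. Centring an array shifts all its genes by the same amount and leaves the difference between 2 genes as it was. This within-array difference was compared between groups for all 13 pairs of the same role by an exact two-sided permutation of the 8 arrays (70 assignments). The smallest p this design allows is 0.0286, and the p of 8 pairs reached it, with an adjusted p of 0.0464 over the 13 pairs in this exact test. With fewer pairs at that smallest p none would have passed, and pairs share genes, so the 8 are not separate results. After cyclic loess, which can move genes of one array unequally, the same 8 pairs passed. Notch3 changed by 0.98 more than Notch4 and by 0.45 more than Notch1, and Notch1 changed by 0.53 more than Notch4. In each of these 3 pairs the within-array difference in all 4 adenocarcinomas lay beyond that of every normal sample. The differences of Notch2 from Notch3 (-0.43) and from Notch4 (0.55) did not pass the exact permutation test (adjusted p = 0.149 each), and its change was 0.03 above that of Notch1 (exact adjusted p = 1).

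Among the ligands, the Delta-like genes rose and the Jagged genes were not called. Dll1 (probe set 10448034, chromosome 17 from 15504318 to 15512551), a Delta-like ligand made by progenitor and secretory cells of gut epithelium, was at 9.5, 10.2, 9.2 and 8.6 in adenocarcinoma. In normal mucosa it was at 7.9, 7.9, 8.4 and 7.8. The adenocarcinomas spread over 1.6 units, from replicate 4, just above normal replicate 3, to replicate 2. The difference of 1.38 ± 0.299 (2.59-fold; limma adjusted p = 0.0073) was called under all 20 alternative settings run and ranged from 1.10 to 1.63.

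Dll4 (probe set 10474958, chromosome 2 from 119151560 to 119161400), the Delta-like ligand of sprouting vessels, was at 9.0, 8.9, 9.7 and 9.2 in adenocarcinoma and at 8.5, 8.2, 8.3 and 8.4 in normal mucosa. The groups did not overlap and replicate 3 was highest. The difference was 0.85 ± 0.169 (1.8-fold; limma adjusted p = 0.00466). Replicate 3 also had the highest mean of the 12 endothelial markers, 10.5, against 9.5, 9.58 and 9.68 in replicates 1, 2 and 4. Among those markers VE-cadherin (Cdh5) rose by 3.93 and the receptor Kdr by 2.13, while the claudin Cldn5, at 0.90, was not called (adjusted p = 0.0645). Replicate 3 also had the highest adenocarcinoma mean of pericyte (11.1), smooth muscle (11.6) and fibroblast (12.2) markers. The mean of macrophage markers was highest in replicate 2 (11.1). The part of endothelial cells in the rise of Dll4 was not tested.

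Jag1, a Jagged ligand of epithelial and vascular cells, was at 10.3, 10.1, 10.2 and 10.1 in adenocarcinoma and at 10.3, 10.2, 10.2 and 10.5 in normal mucosa. The groups overlapped. The difference of -0.13 ± 0.0983 was not called (adjusted p = 0.318; 95% interval -0.35 to 0.10). It was called lower with arrays centred on their median (-0.26, adjusted p = 0.045) and turned to 0.03 (adjusted p = 0.878) with arrays centred on olfactory and vomeronasal receptor genes.

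Jag2, the other Jagged ligand, was at 9.1, 8.8, 9.2 and 8.1 in adenocarcinoma and at 8.9, 9.0, 8.9 and 9.0 in normal mucosa. Replicates 1 and 3 lay above the normal samples and replicates 2 and 4 below them. The difference was -0.15 ± 0.214 (adjusted p = 0.584; 95% interval -0.63 to 0.33), and without adenocarcinoma replicate 4 it turned to 0.08 (adjusted p = 0.565).

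By the exact permutation of arrays, Dll1 and Dll4 each rose relative to Jag1 (by 1.5 and 0.98) and to Jag2 (by 1.53 and 1). In these 4 pairs every adenocarcinoma lay beyond every normal sample (exact adjusted p = 0.0464 each). Dll1 changed by 0.53 more than Dll4, a difference that was not called (exact adjusted p = 0.405), and Jag1 and Jag2 differed in change by 0.03 (exact adjusted p = 1). With arrays centred on olfactory and vomeronasal receptor genes, the differences of Notch4 and Jag2 were both 0, so no direction is given for either.

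The 2 targets moved in opposite directions. Hey1 (probe set 10497203, chromosome 3 from 8663359 to 8667039), a repressor of the Hey family active in vessels, was at 8.4, 8.6, 8.6 and 8.5 in adenocarcinoma and at 7.8, 7.8, 7.5 and 7.8 in normal mucosa. The 4 adenocarcinomas lay within 0.2 units of each other and above all normal samples. The difference of 0.80 ± 0.1 (1.74-fold) had the smallest adjusted p of the 10 genes (0.000408 in limma).

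Hes1 (probe set 10434925, chromosome 16 from 30065443 to 30067882), the main Notch-driven repressor of gut epithelium, was at 10.3, 9.8, 10.6 and 9.7 in adenocarcinoma. In normal mucosa it was at 10.7, 10.6, 10.6 and 10.6. Replicates 1, 2 and 4 lay below all normal samples and replicate 3 at their level. The difference of -0.53 ± 0.187 (1.44-fold lower) passed narrowly (limma adjusted p = 0.0489). The call was lost after cyclic loess (adjusted p = 0.059), with 32 intensity units added (0.0543), with arrays centred on olfactory and vomeronasal receptor genes (0.141), and without adenocarcinoma replicates 2 (0.119) or 4 (0.0971). It was also lost without normal replicates 1, 2, 3 and 4 (0.109, 0.0823, 0.0978 and 0.0965). The direction was the same under all 20 alternatives, from -0.69 to -0.38. Relative to Hes1, Hey1 rose by 1.33 within arrays, in every adenocarcinoma beyond every normal sample (exact permutation, adjusted p = 0.0464). The 5 chief cell and 5 pit cell markers, which mark gastric enzyme and surface mucus cells, fell in 5 and 4 cases, with median differences of -4.28 and -2.63. Chief cell markers had a mean level of 11.9 to 12.5 in normal mucosa, against 7.72 to 8.80 in adenocarcinoma. Pit cell markers were at 13.9 to 14.0 in normal mucosa and at 9.58 to 12.5 in adenocarcinoma. Their part in the change of Hes1 was not tested.

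**Figure D2:**
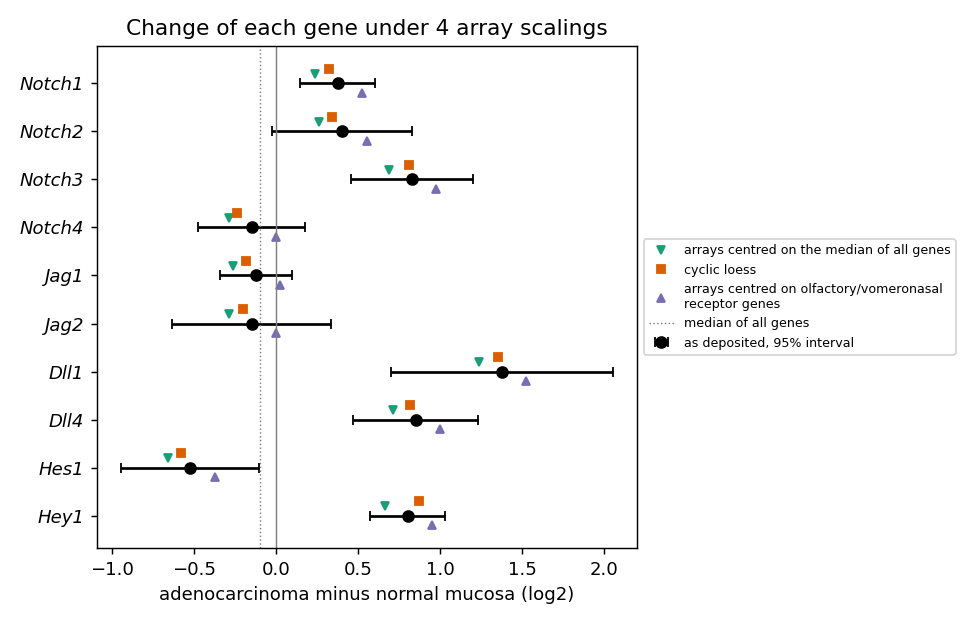
Differences between adenocarcinoma and normal mucosa (horizontal axis, log2) of the 10 genes, with the values as deposited (black, bars are 95% intervals of limma) and under 3 other array scalings (coloured symbols); the dotted line is the median of all genes. Dll1, Dll4, Notch3 and Hey1 stay above 0.66 under all 4 scalings, whereas Jag1 changes sign.

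The adenocarcinomas differed among themselves in these genes. The median SD of the 10 genes was 0.343 between adenocarcinomas and 0.135 between normal samples, beside 0.189 and 0.129 over all genes. The largest SD was that of Dll1 (0.665) and the smallest those of Hey1 and Jag1 (0.0957 each). Adenocarcinoma replicate 4 was the lowest alone for 6 of the 10 genes (Notch1, Notch2, Notch3, Jag2, Dll1 and Hes1), while it was lowest alone for 14.3% of all genes. Replicate 3 was the highest alone for 6 genes (Notch1, Notch2, Notch4, Jag2, Dll4 and Hes1), beside 19% of all genes. Neither share was tested.

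Replicate 4 was the highest adenocarcinoma for 3 genes that Hes1 is known to repress and for 2 progenitor genes, singled out after their values were seen. It was the highest alone for 24.7% of all genes and 30.6% of the other pathway genes, the largest share of the 4 adenocarcinomas in both sets. Atoh1, the master factor of secretory cells in the intestine, was at 7.2, 6.8, 7.0 and 9.9 in the adenocarcinomas and at 7.4 to 7.7 in normal mucosa. It was thus high in replicate 4 and below all normal samples in the other three. Hes1 was at 9.8 in replicate 2 and at 9.7 in replicate 4, and Atoh1 was lowest in replicate 2. A link between Hes1 and these genes was not tested. Over all 4 adenocarcinomas the difference of Atoh1 was 0.17 ± 0.598 (adjusted p = 0.829), and without replicate 4 it was -0.55 (limma adjusted p = 0.00999). The adjusted p-values given for Atoh1, Olfm4 and Sox9 with a sample left out do not cover the choice of gene and sample.

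The endocrine factor Neurog3 was at 6.7, 6.5, 6.7 and 7.9, beside 6.7 to 7.0 in normal mucosa. Neurod1, also an endocrine factor, was at 5.5, 5.9, 5.4 and 7.1, beside 5.7 to 6.1, and on 7 of 8 arrays it did not exceed the median of the background probes. Both were high in replicate 4 alone. Without replicate 4 their differences turned from 0.10 to -0.22 (Neurog3) and from 0.13 to -0.25 (Neurod1), none of them called.

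Olfm4, a Notch-dependent marker of intestinal stem cells, was at 9.1, 8.9, 10.6 and 13.5 in adenocarcinoma and at 8.0 to 8.3 in normal mucosa. All 4 adenocarcinomas lay above the normal samples, and the difference of 2.35 ± 0.866 was not called (adjusted p = 0.0553). Without adenocarcinoma replicates 1, 2 and 4 it was called, at 2.83, 2.89 and 1.36 (limma adjusted p = 0.0353, 0.0362 and 0.0201). Sox9, a progenitor factor, was at 10.8, 11.4, 11.5 and 12.4, beside 10.6 to 11.2, and was not called (0.62 ± 0.301, adjusted p = 0.119), but without replicate 1 it was (0.87, limma adjusted p = 0.0306), and without replicate 4 its difference was 0.33 (adjusted p = 0.221). For both genes replicate 4 was the highest.

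**Figure D3:**
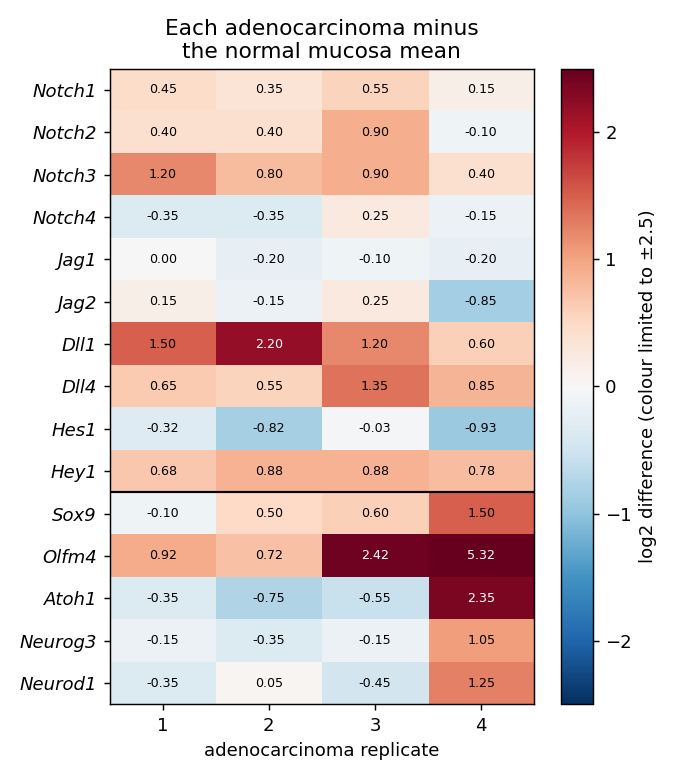
Log2 value of each adenocarcinoma (columns) minus the normal mucosa mean, for the 10 Notch family genes (above the line) and for Sox9, Olfm4 and 3 genes known to be repressed by Hes1 (below the line); red is higher and blue lower. Replicate 4 is the lowest column for Jag2 and Hes1 (-0.85 and -0.93) and the only one with Atoh1 above normal mucosa (2.35). Replicate 2, with Hes1 at -0.825, has the lowest Atoh1 (-0.75).

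By the root mean square difference between centred values over the 8 arrays, the genes most like Dll1, the only called gene of the 10 with a difference of at least 1, were Fam55c (0.183), Glis2 (0.198) and Ckap2 (0.24). Fam55c was at 9.3, 9.7, 9.0 and 8.2 in adenocarcinoma and at 7.5 to 7.9 in normal mucosa. Glis2, a zinc finger factor, was at 9.9, 10.6, 9.7 and 9.0 and at 8.4 to 8.6. Ckap2, a protein of the mitotic spindle, was at 9.3, 10, 8.9 and 9.0 and at 8.0 to 8.4. All 3 were highest in adenocarcinoma replicate 2, as Dll1 was, which their choice by likeness over these same arrays favours.

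Of 63 other pathway genes listed, 62 were measured; 16 rose, 9 fell and 37 were not called, beside 18.2% of all genes higher and 23.6% lower. Their median difference was 0.06. By the probe set used for each gene, no called gene among them reached 2-fold, though the other probe set of Maml2 differed by 2.5. The number that fell was 18 with arrays centred on their median and 2 with arrays centred on olfactory and vomeronasal receptor genes, and it was 5, 4 and 5 without normal replicates 1, 3 and 4.

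Of 5 genes that put sugars on Notch receptors, 4 rose, with a list median of 0.63. Lfng, the Fringe enzyme known to favour Delta-like over Jagged signals, was at 9.2, 9.6, 9.7 and 9.5 in adenocarcinoma and at 8.6, 8.4, 8.7 and 8.4 in normal mucosa. All adenocarcinomas lay above all normal samples, with a difference of 0.98 ± 0.127 (1.97-fold; limma adjusted p = 0.000509). Pofut1, which adds the fucose that Fringe extends, rose by 0.65 ± 0.12 (adjusted p = 0.00331). The glucosyltransferase Poglut1 rose by 0.62 ± 0.123 (adjusted p = 0.00451) and the Fringe enzyme Mfng by 0.47 ± 0.138 (adjusted p = 0.0243), while the third Fringe, Rfng, was at -0.10 (adjusted p = 0.728).

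Of 8 genes of receptor turnover, 4 rose and none fell. The ubiquitin ligase Dtx4, of the Deltex family, lay between 10.8 and 11.4 in adenocarcinoma and between 9.9 and 10.2 in normal mucosa (0.95 ± 0.144, limma adjusted p = 0.00116). Numbl, a relative of the Notch inhibitor Numb, was at 9.3 to 10.4 and 8.9 to 9.0 (0.85 ± 0.207, limma adjusted p = 0.0121), and Numb itself was at -0.10 (adjusted p = 0.533). The groups did not overlap for Dtx4 or Numbl.

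Of 8 genes of the nuclear complex, 3 rose and none fell. For the coactivator Maml2, of the Mastermind family, 2 probe sets differed in size. The one with the higher mean over the 8 arrays, which the deposited annotation puts on 9_random, rose by 0.78 ± 0.205 (limma adjusted p = 0.0169). In adenocarcinoma its mean was 9.325, below the 10.1 of the other. The other lay between 9.4 and 10.7 in adenocarcinoma and between 7.5 and 7.7 in normal mucosa, a difference of 2.5, and their mean over both moved the change to 1.64. For the DNA-binding partner Rbpj, 2 probe sets disagreed in direction. The brighter, marked in the table as open to cross-hybridisation (type 3), was at 10.2 to 10.5 and 9.4 to 9.7 (0.75 ± 0.114, limma adjusted p = 0.00119). The dimmer, marked type 1, was at 6.4 to 6.7 and 6.6 to 7.1 (-0.35), and with the mean of both the call was lost (0.20, adjusted p = 0.111).

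Of 11 corepressors, 4 fell and 2 rose. Of the 4 Groucho-type corepressors, which Hes proteins recruit, Tle2 (-0.60 ± 0.0888, limma adjusted p = 0.000998) and Tle4 (-0.60 ± 0.134, adjusted p = 0.00824) fell without overlap of the groups. Tle3 fell by 0.23 (limma adjusted p = 0.0418), and Tle1 was at 0 (adjusted p = 1). Spen, a corepressor that binds Rbpj, lay between 9.9 and 10.1 in adenocarcinoma and between 10.5 and 10.6 in normal mucosa (-0.53 ± 0.0798, adjusted p = 0.00117). The call of Tle4 was lost with arrays centred on olfactory and vomeronasal receptor genes (-0.45, adjusted p = 0.0574).

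Of 9 genes of receptor cleavage, 2 fell and 1 rose. Furin, which cuts the receptor on its way to the surface, lay between 11.2 and 11.8 in adenocarcinoma and between 12 and 12.6 in normal mucosa (-0.68 ± 0.182, limma adjusted p = 0.0183). Its call was lost without normal replicate 3 (adjusted p = 0.0528). Psen2, a catalytic subunit of gamma-secretase, fell by 0.45 ± 0.152 (adjusted p = 0.0417). Its call was lost without adenocarcinoma replicate 2 (0.0584) and without normal replicates 1, 2, 3 and 4 (0.0983, 0.0832, 0.0858 and 0.0661). Both calls were also lost with arrays centred on olfactory and vomeronasal receptor genes (0.0697 and 0.237). The metalloprotease Adam10, which makes the cut that follows ligand binding, was at 0 (adjusted p = 1; 95% interval -0.30 to 0.30).

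Of 3 measured genes that drive ligand uptake, Mib1 rose by 0.57 ± 0.16 (limma adjusted p = 0.0205) and the related Mib2 fell by 0.42 ± 0.0864 (adjusted p = 0.00527). The call of Mib1 was lost without adenocarcinoma replicate 2 (0.0539) and without normal replicates 1 (0.0558) and 3 (0.0623), and that of Mib2 with arrays centred on olfactory and vomeronasal receptor genes (0.0513). Of 4 further ligands, 2 fell. Dll3, a Delta-like protein that does not activate Notch on neighbouring cells, was at 7.0 to 7.3 in adenocarcinoma, against 7.4 to 7.7 in normal samples (-0.38 ± 0.104, adjusted p = 0.0202). Its call was lost after cyclic loess (-0.19, adjusted p = 0.112), with arrays centred on olfactory and vomeronasal receptor genes (0.109) and without normal replicates 1, 3 and 4 (0.0524, 0.0529 and 0.0648). Dlk2, a Delta-like relative, fell by 0.35 (adjusted p = 0.0479), a call lost in 7 of 8 leave-outs, all but that of normal replicate 2 (adjusted p = 0.0522 to 0.123). Its call was also lost after cyclic loess (0.0551), with arrays centred on olfactory and vomeronasal receptor genes (-0.20, adjusted p = 0.203), without the dimmest 30% of genes (0.0505), with a trended and robust eBayes (0.0532) and with noise added against rounding (0.0631).

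Of 11 other targets, only Heyl rose, from 7.9 to 8.3 in normal mucosa to 8.4 to 9.3 in adenocarcinoma (0.60 ± 0.189, limma adjusted p = 0.0325). It belongs to the same family as Hey1, and its call was lost without normal replicates 1, 2, 3 and 4 (0.0758, 0.0759, 0.0553 and 0.055). Of the 3 genes known to be repressed by Hes1 that are reported here (Atoh1, Neurog3 and Neurod1), none was called over all 8 arrays.

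**Figure D4:**
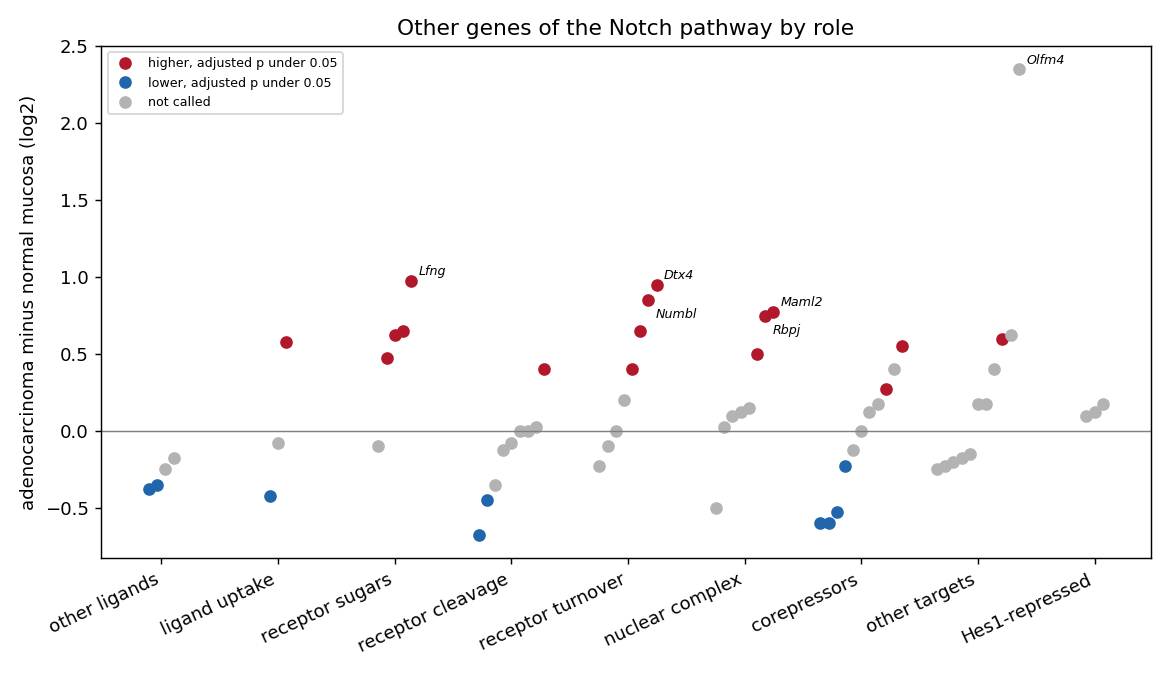
Differences between adenocarcinoma and normal mucosa (vertical axis, log2) of 62 other Notch pathway genes, 1 point a gene, grouped by role; red points were called higher, blue points lower and grey points not called. The genes that put sugars on receptors lie mostly above 0, with Lfng at 0.98, and the corepressors spread to both sides.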

How the data were processed

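Expression in 4 adenocarcinomas of the stomach and 4 normal mucosa samples was taken from the deposited log2 values, which the authors made with RMA, per the submitters' processing notes. No source used here gives its version or settings. Values carry 1 decimal, and all 284448 were equal in the annotated table and in the series matrix. Of 28350 gene probe sets, 24975 carried 1 symbol and gave 21626 genes, with the probe set of highest mean standing for a gene. Gene positions are those of the table. Groups were compared with lmFit and eBayes of limma 3.58.1 in R 4.3.3 (two-sided tests, Benjamini-Hochberg adjustment over all genes), and pairs by exact permutation. Array number, 4 per group, limits precision. The code was tested on simulated data. A total of 20 alternatives were run, of which leaving out the 850 genes on X and Y was added after seeing the data, as was cyclic loess for the pairs.

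The genes and lists were chosen with earlier results of these data known. Of other pathway genes, the 2 called genes of largest change in each list were named (that of smallest p where none was called), further genes as examples after their values were seen. A gene of these lists is not reported here and is in no count over them. No slide or scan date was analysed here, and batches were not tested. Motifs were counted in the 250 bases before each start. Figures used Python 3.11.15, pandas 2.3.3 and matplotlib 3.10.9.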

Additional observations from a re-analysis of the deposited data

Results flagged for a closer look

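In 10 cases a single sample lay far from the other 3 of its group, by Dixon's test on the gap to the nearest sample over the range of the group (critical value 0.829 for 4 samples). Chance gives about 1 such case in 20 groups, 60 groups of 30 genes were looked at, and values with 1 decimal give more, since a group in which 3 samples share a value always passes. Atoh1 and Neurog3 were singled out after their values were seen, so that rate does not hold for them. In adenocarcinoma, replicate 4 was high for Atoh1 (9.9) and Neurog3 (7.9), and replicate 1 was low for Psen2 (8.6) and high for Tle2 (7.8). In normal mucosa, replicate 3 was high for Dll1 (8.4) and low for Hey1 (7.5). Normal replicate 1 was high for Hes1 (10.7) and low for Pofut1 (8.6), and normal replicate 2 was low for Numbl (8.9) and Maml2 (8.4). The normal mucosa cases of Hes1, Pofut1 and Numbl, like Tle2, are steps of 0.1 units. No explanation was tested.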

How the results depend on the processing

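Of the 10 genes, Notch3, Dll1, Dll4 and Hey1 were called higher under all 20 alternatives, and 4 to 6 genes were called higher in each. The number called lower, 1 as reported, was 2 with arrays centred on their median and 0 after cyclic loess, with arrays centred on olfactory and vomeronasal receptor genes, with 32 intensity units added, with the replicate block and at an adjusted p under 0.01, and 0 to 1 when a sample was left out. Of the other pathway genes, the number higher, 16 as reported, was 5 at an adjusted p under 0.01, and 11 to 17 with a sample left out. The number lower, 9 as reported, was 18 with arrays centred on their median, 2 with arrays centred on receptor genes, 4 at an adjusted p under 0.01, and 4 to 11 with a sample left out. Differences that changed sign were those of Jag1 with arrays centred on receptor genes (0.025), of Neurog3 and Neurod1 with arrays centred on their median (-0.0375 and -0.0125), and, without adenocarcinoma replicate 4, of Jag2, Atoh1, Neurog3 and Neurod1. With a sample left out, these ranged from -0.283 to 0.0833 (Jag2), -0.55 to 0.483 (Atoh1), -0.217 to 0.25 (Neurog3) and -0.25 to 0.317 (Neurod1). The cause was not tested. The pairs with unequal change, 8 of 13, were 8 with 32 units added, 8 with the mean of probe sets, 9 with noise of 0.05 added and 8 after cyclic loess. The pair test was not run with a sample left out. Same-numbered samples need not be paired: their deviations correlated at -0.175, 0.0949, 0.158 and 0.0376. With the replicate number as a block, 5 of the 10 genes were higher and 0 lower, and 12 and 7 of the other pathway genes. Hes1 (adjusted p = 0.0621), Psen2 (0.0758) and Heyl (0.0783) lost their call.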
